A study of Canis lupus familiaris with 6 samples.

Results

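Serine, one-carbon and asparagine synthesis enzymes were followed in HU-HSA-2 cells, a line derived from hemangiosarcoma of the dog, a cancer of the vessel lining. They were chosen by name: PHGDH, PSAT1 and PSPH of serine synthesis, SHMT1, SHMT2, MTHFD1, MTHFD2, MTHFD1L and ALDH1L2 of folate-bound one-carbon metabolism, and ASNS, the asparagine synthetase. Of these 10 genes, 9 matched 1 row each of the 20500 rows by symbol, and all 9 were among the 10874 genes tested. PHGDH, which catalyses the first step of serine synthesis, matched no row name and is not analysed here. Since 2185 rows carry an Ensembl identifier instead of a symbol, this does not show that PHGDH is absent or not expressed.

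There were 3 libraries of cells given (R)-GNE-140 and 3 control libraries. (R)-GNE-140 is a small molecule that blocks the lactate dehydrogenases LDHA and LDHB. Both groups were HU-HSA-2 cells kept in DMEM that contained 10% fetal bovine serum and antibiotics (penicillin and streptomycin), and received the compound or its DMSO vehicle for 72 hours. The sources used here give no dose, and the groups come from 1 cell line. Nothing in the labels marks the replicates as separate cultures, so each p-value reflects only the spread among these libraries, which may be technical.

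Serine is made from the glycolytic intermediate 3-phosphoglycerate, and the first step, by PHGDH, uses NAD+, the cofactor that lactate dehydrogenase regenerates when it reduces pyruvate. SHMT1 in the cytosol and SHMT2 in mitochondria split serine into glycine and a carbon unit carried on folate. In mitochondria MTHFD2, MTHFD1L and ALDH1L2 oxidise that unit to formate or carbon dioxide, and in the cytosol MTHFD1 converts folate-bound carbon units for purine and thymidylate synthesis. Several of these genes, with ASNS, are known targets of ATF4, a transcription factor that answers amino acid shortage and other stresses.

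None of the 9 enzymes passed the test between (R)-GNE-140 and control libraries, and the differences were small in both directions. On log2(TPM + 1), the limma test with Benjamini-Hochberg adjustment called 0 higher and 0 lower of 9, against 3.03% of all genes tested. At that share, 0 calls among 9 genes says nothing particular about them. TPM is a length-normalised transcript abundance scaled to a fixed total per library. Without adjustment, 0 of 9 had a limma p under 0.05, against 17.9% of all genes. The median log2 difference over the 9 enzymes was 0.06, and over all genes tested it was 0.004. The 95% limma intervals of the 9 differences, taken singly, reached from a log2 of -0.25 to 0.26, which is a fold of 0.839 to 1.20. In bulk RNA, a change in the make-up of the cells and a change of RNA per cell cannot be told apart.

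**Figure D1:**
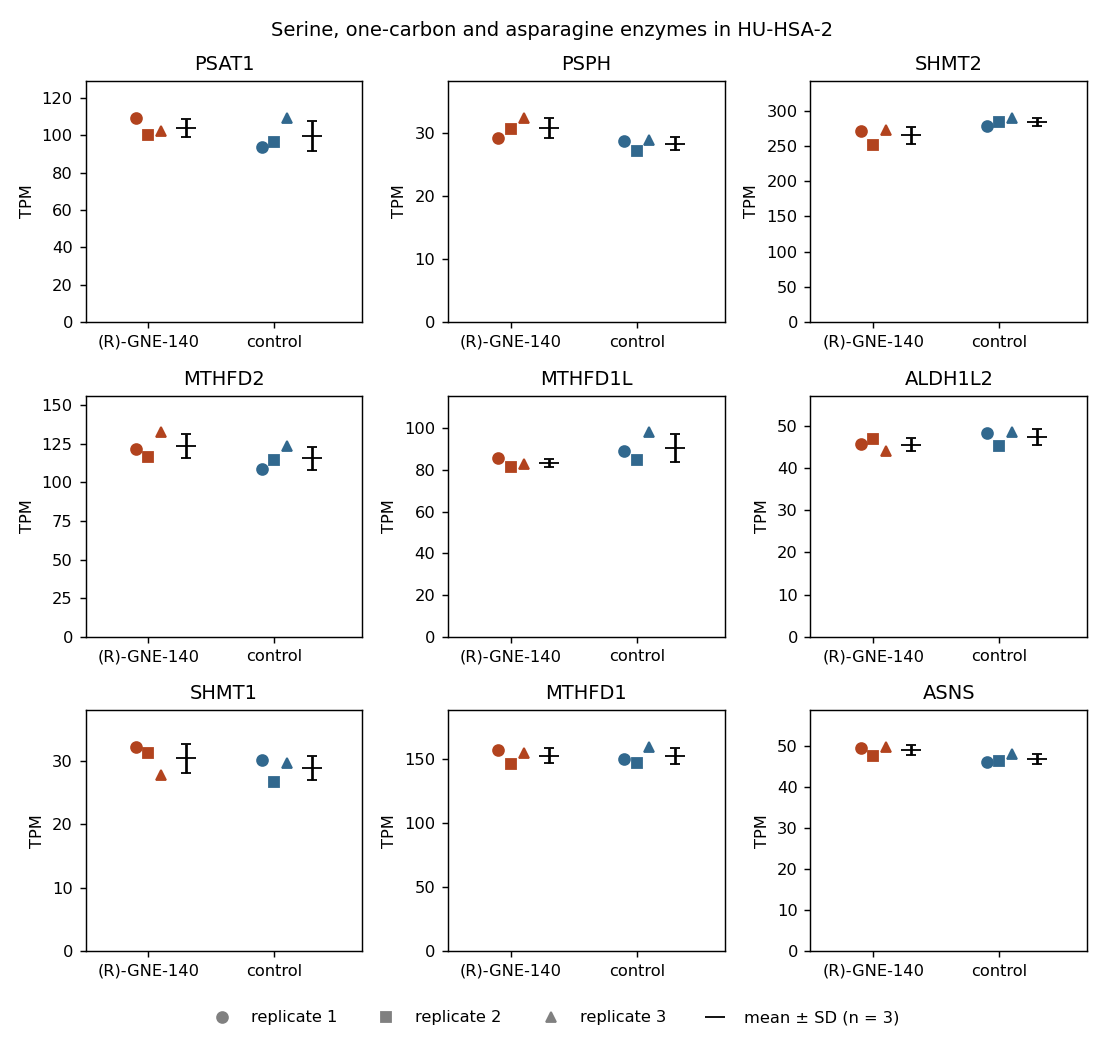
TPM of the 9 enzymes in each library, with (R)-GNE-140 at the left and control at the right of each panel. Symbols mark the replicate, and the bar gives the mean and SD of 3 libraries. The 2 groups overlap for 7 enzymes, while the (R)-GNE-140 values of PSPH all lie above, and those of SHMT2 all below, the control values.

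PSAT1 (ENSCAFG00845008158 in the identifier list of the deposited table), the aminotransferase of the second step of serine synthesis, had 109.48, 100.13 and 102.31 TPM in (R)-GNE-140 libraries, against 93.92, 96.60 and 109.12 TPM in control libraries. The groups overlapped, since control replicate 3 lay above 2 of the 3 treated libraries. PSAT1 differed by 0.06 on the log2 scale (95% interval -0.09 to 0.21, limma adjusted p = 0.708). PSPH (ENSCAFG00845012615), the phosphatase that releases serine in the last step, had 29.19, 30.69 and 32.43 TPM in (R)-GNE-140 libraries and 28.79, 27.14 and 28.98 TPM in control libraries. All 3 treated values were above all 3 control values, but the closest of them were 29.19 and 28.98 TPM. Its log2 difference of 0.12 (95% interval -0.03 to 0.26) did not pass (limma adjusted p = 0.390). The exact 2-sided permutation test gave p = 0.1, the smallest that 3 against 3 libraries can give. Summed, PSAT1 and PSPH came to 135 ± 3.93 TPM in (R)-GNE-140 libraries and 128 ± 8.60 TPM in control libraries (SD, n = 3 each), and the groups overlapped.

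The most abundant of the 9 enzymes was SHMT2, of the mitochondrial one-carbon branch. SHMT2 (ENSCAFG00845010365) had 271.55, 251.24 and 272.39 TPM in (R)-GNE-140 libraries, against 278.37, 283.28 and 289.85 TPM in control libraries. Every treated library lay below every control library, by the narrowest margin between 272.39 and 278.37 TPM. SHMT2 thus differed by -0.10 on the log2 scale (95% interval -0.21 to 0.01, limma adjusted p = 0.315, exact permutation p = 0.1), with the smallest adjusted p of the 9. Thus 2 of 9 enzymes had groups that lay apart, 1 upward and 1 downward, where 23.1% of all genes tested did, 11.2% with all treated values above and 11.8% with all below. This share is close to that of all genes.

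MTHFD2 (ENSCAFG00845021709), the mitochondrial dehydrogenase and cyclohydrolase, had 121.75, 116.84 and 132.48 TPM in (R)-GNE-140 libraries and 108.96, 114.61 and 123.65 TPM in control libraries. MTHFD1L (ENSCAFG00845020116), which releases formate in mitochondria, had 85.59, 81.65 and 82.78 TPM in (R)-GNE-140 libraries and 89.04, 84.64 and 98.05 TPM in control libraries. Both genes overlapped between groups, in MTHFD2 through control replicate 3 and in MTHFD1L through control replicate 2. The log2 difference was 0.10 for MTHFD2 (95% interval -0.05 to 0.24, limma adjusted p = 0.503). For MTHFD1L it was -0.12 (95% interval -0.25 to 0.02, limma adjusted p = 0.364).

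ALDH1L2 (ENSCAFG00845006151), the mitochondrial enzyme that oxidises formyl-folate and yields NADPH, had 45.74, 46.95 and 43.97 TPM in (R)-GNE-140 libraries, against 48.39, 45.24 and 48.42 TPM in control libraries. The groups overlapped, with a log2 difference of -0.05 (95% interval -0.18 to 0.07, limma adjusted p = 0.683). The summed TPM of SHMT2, MTHFD2, MTHFD1L and ALDH1L2 was 518 ± 18.5 in (R)-GNE-140 libraries and 538 ± 19.5 in control libraries (SD, n = 3 each). This sum overlapped between groups as well.

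In the cytosolic branch, SHMT1 (ENSCAFG00845020125) had 32.22, 31.23 and 27.86 TPM in (R)-GNE-140 libraries, against 30.16, 26.70 and 29.73 TPM in control libraries. MTHFD1 (ENSCAFG00845002014), the trifunctional folate enzyme of the cytosol, had 157.33, 146.19 and 155.01 TPM in (R)-GNE-140 libraries, against 150.27, 147.44 and 159.70 TPM in control libraries. Neither gene separated the groups. The log2 difference was 0.07 for SHMT1 (95% interval -0.10 to 0.24, limma adjusted p = 0.684) and 0.004 for MTHFD1 (95% interval -0.11 to 0.12, limma adjusted p = 0.980). The sign of the MTHFD1 difference turned under median-of-ratios scaling (-0.0055) and in 4 of the 6 fits with 1 library omitted (-0.020 to 0.037).

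ASNS (ENSCAFG00845022196) makes asparagine from aspartate and glutamine and is among the best-known ATF4 targets. It had 49.66, 47.72 and 49.79 TPM in (R)-GNE-140 libraries, against 46.09, 46.30 and 48.15 TPM in control libraries. The groups overlapped because control replicate 3 lay above the treated replicate 2. ASNS differed by 0.07 on the log2 scale (SE 0.05, 95% interval -0.05 to 0.18, limma adjusted p = 0.580, exact permutation p = 0.2). Its coefficient of variation was 2.36% in (R)-GNE-140 libraries and 2.42% in control libraries, at the narrow end of the 2.03% to 8.12% found over the 9 enzymes and both groups.

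The other genes at these levels show which differences the test called, though not the smallest it could call for each enzyme. Between 29.5 and 274 TPM, the range of the 9 enzymes' means, 3943 genes were tested and 175 (4.44%) passed. The smallest absolute log2 difference among those 175 was 0.20 and their median was 0.33, both on log2(TPM + 1). The 9 enzymes had a largest absolute difference of 0.12, which 38.7% of all genes tested exceeded. That share includes genes at lower levels and was not computed for the 3943 genes alone. Their standard errors ran from 0.05 to 0.08, and the median standard error of genes at these levels was 0.06.

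**Figure D2:**
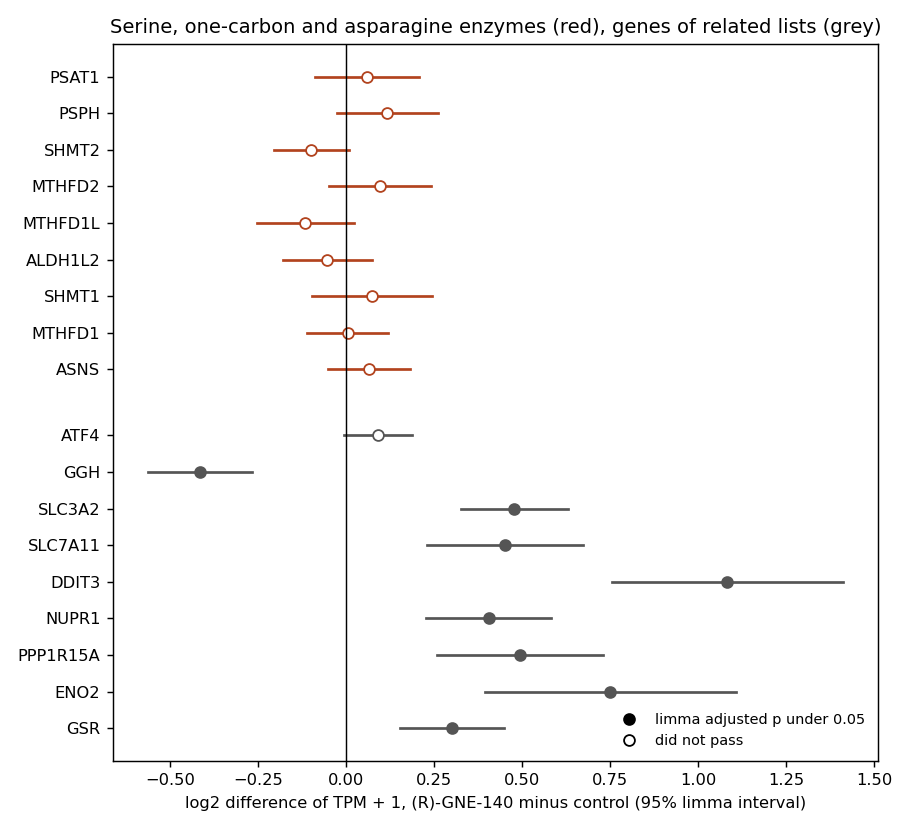
Log2 difference of TPM + 1, (R)-GNE-140 minus control, with the 95% limma interval, for the 9 enzymes (red) and for ATF4 and the related genes that passed (grey). Filled points passed an adjusted p of 0.05; each of the 9 intervals includes 0 and none reaches beyond 0.26 in size.

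The levels of the 9 enzymes, which TPM allows to be set against each other, kept nearly the same order in both groups. SHMT2 was highest, at 265 ± 12.0 TPM in (R)-GNE-140 and 284 ± 5.76 TPM in control libraries, above 95.5% of all genes tested. MTHFD1, MTHFD2, PSAT1 and MTHFD1L followed, and MTHFD1 averaged 153 ± 5.88 TPM in (R)-GNE-140 and 152 ± 6.42 TPM in control libraries (SD, n = 3 each). ASNS and ALDH1L2 came next at 43.97 to 49.79 TPM over all 6 libraries, and SHMT1 and PSPH were lowest at 26.70 to 32.43 TPM. Neighbours in this order had separate ranges among the (R)-GNE-140 libraries, except SHMT1 and PSPH. Among the controls, the ranges of 4 neighbouring pairs overlapped, namely MTHFD2 with PSAT1, PSAT1 with MTHFD1L, ASNS with ALDH1L2, and SHMT1 with PSPH. ASNS exceeded ALDH1L2 in 3 of 3 (R)-GNE-140 libraries and in 1 of 3 controls.

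Within a library, the ratio of 2 enzymes does not depend on the scaling to a common total. The ratio of MTHFD2 to MTHFD1L was 1.42, 1.43 and 1.60 in (R)-GNE-140 libraries, against 1.22, 1.35 and 1.26 in control libraries. The 2 groups lay apart, with a log2 difference of 0.21 (exact 2-sided permutation p = 0.1, the smallest possible, and 0.2 after Benjamini-Hochberg adjustment over the 4 ratios examined). MTHFD1L relative to MTHFD1 was also separated, at 0.544, 0.559 and 0.534 in (R)-GNE-140 and 0.593, 0.574 and 0.614 in control libraries (log2 difference -0.12, exact permutation p = 0.1, adjusted 0.2). Since 3 against 3 libraries cannot go below 0.1, no ratio could pass 0.05. Both separated ratios contain MTHFD1L, so they are not independent. Of single genes, 23.1% of all tested lay apart, and this share was not computed for ratios of other gene pairs.

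The other 2 ratios overlapped between groups. SHMT2 to SHMT1, the mitochondrial over the cytosolic form, was 8.43, 8.04 and 9.78 in (R)-GNE-140 libraries and 9.23, 10.6 and 9.75 in control libraries (log2 difference -0.18, exact permutation p = 0.3). MTHFD2 to MTHFD1 averaged 0.809 ± 0.0413 in (R)-GNE-140 and 0.759 ± 0.0293 in control libraries (SD, n = 3 each; log2 difference 0.09, exact permutation p = 0.3). The log2 difference of MTHFD2 to MTHFD1L ran from 0.16 to 0.25 with 1 library left out, and that of SHMT2 to SHMT1 from -0.26 to -0.12.

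**Figure D3:**
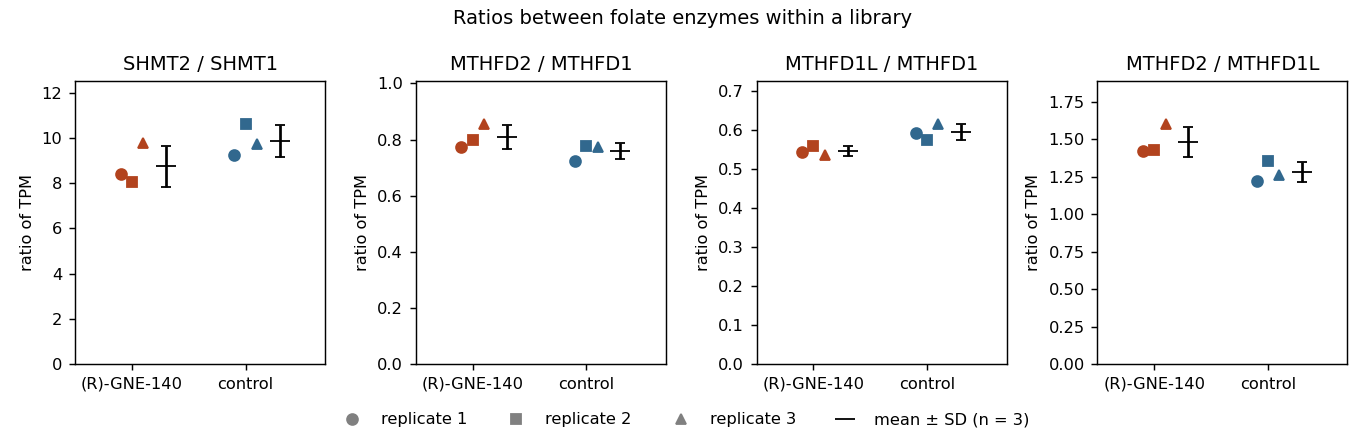
Ratio of the TPM of 2 folate enzymes within each library, with (R)-GNE-140 at the left and control at the right of each panel; symbols mark the replicate and the bar the mean and SD of 3 libraries. MTHFD2 / MTHFD1L lies at 1.42 to 1.60 in (R)-GNE-140 and 1.22 to 1.35 in control libraries, MTHFD1L / MTHFD1 is also apart, and SHMT2 / SHMT1 and MTHFD2 / MTHFD1 overlap.

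Within each group, the library that was highest or lowest for the enzymes was set beside all genes tested. Among the 3 controls, replicate 3 had the highest value in 8 of 9 enzymes, while 41.1% of all genes tested were highest there; SHMT1, highest in replicate 1, was the exception. Among the (R)-GNE-140 libraries, replicate 2 was lowest in 6 of 9 enzymes, against 56.1% of all genes tested, which is a similar share. Without control replicate 3, the median log2 difference of the 9 enzymes was 0.08, and without control replicate 1 it was 0.02. With each library omitted in turn, limma called none of the 9, and the smallest adjusted p was 0.258, for MTHFD1L without control replicate 2.

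Between 13379 and 13861 genes had a TPM above 0, and the depth of each library is unknown because TPM keeps none. Of 11 endothelial markers, 10 had a mean of at least 1 TPM, while VWF, the von Willebrand factor, lay at 0.02 to 0.13 TPM. Their summed level was 1344 to 1452 TPM in (R)-GNE-140 and 1479 to 1724 TPM in control libraries. CLDN5 was its largest part, at 579 to 652 TPM in (R)-GNE-140 and 661 to 848 TPM in control libraries. Single markers went in either direction. EMCN was at 185 to 209 TPM in (R)-GNE-140 and 221 to 231 TPM in control libraries, and FLT1 at 4.01 to 4.73 and 2.40 to 3.37 TPM. The 6 leukocyte markers summed to 2.05 to 3.21 TPM in (R)-GNE-140 and 2.76 to 3.23 TPM in control libraries, with CD3E listed at 0 in all. The 7 fibroblast and smooth muscle markers summed to 6.46 to 9.31 TPM in (R)-GNE-140 and 5.23 to 6.25 TPM in control libraries. The 3 epithelial markers with a row reached at most 0.26 TPM in sum, with CDH1 listed at 0, and the erythroid ALAS2 was listed at 0. None of the tested markers was called by limma, and what part these levels had in the enzymes' values was not tested.

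Lists of genes related to these enzymes, 10 in all, held 8 calls. Counting each gene once, 111 genes were tested in them, of which 7 rose and 1 fell (limma with Benjamini-Hochberg adjustment). This is 7.21% of them, against 3.03% of all genes tested, of which 142 rose and 187 fell. The lists were chosen with earlier results of these data known, and the difference between these shares was not tested. Of the 10 lists, 5 had no call; since 3.03% of all genes were called, 0 calls in a list this short says nothing particular about it. In the list of other folate cycle enzymes and folate carriers, 1 of 14 fell, 0 rose and 13 did not pass, with a list median of -0.05. The fallen gene was GGH, the lysosomal hydrolase that shortens folate polyglutamates. It had 91.03, 104.96 and 105.60 TPM in (R)-GNE-140 libraries, against 130.36, 131.99 and 140.43 TPM in control libraries. All treated values lay below all control values (log2 -0.42, SE 0.07, limma adjusted p = 0.0146), and the call held with each library omitted in turn (adjusted p of 0.0274 at the smallest and 0.0440 at the largest) but not without the variance trend (0.0561). MTR, the methionine synthase, was at -0.19 on the log2 scale and did not pass.

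Among genes that consume or supply the products of these enzymes, 4 short lists had no call, where 3.03% of all genes tested were called. Of 6 tested genes of glycine cleavage and other serine and glycine reactions, 0 passed (list median 0.09). GCAT, which makes glycine from threonine, had 34.39, 31.42 and 32.15 TPM in (R)-GNE-140 and 38.02, 45.44 and 39.07 TPM in control libraries (log2 -0.31, limma adjusted p = 0.0665), and PIPOX was at a log2 of 0.09. Of 15 methionine cycle and transsulfuration genes 0 passed (median -0.05), with AHCY, the adenosylhomocysteinase, at -0.17 and APIP of methionine salvage at -0.16. AHCY passed under median-of-ratios scaling (limma adjusted p = 0.0349). Of 11 purine synthesis genes 0 passed (median 0.01), with ADSL at -0.13 and PRPS2 at -0.11. Of 5 proline synthesis genes 0 passed (median -0.06), with PYCR1 and PYCR3 at -0.12 and -0.11.

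Of 11 genes of aspartate, asparagine, glutamate and glutamine metabolism, 0 passed (median 0.01), where 3.03% of all genes tested were called. GLUL, the glutamine synthetase that supplies the nitrogen donor of ASNS, had 40.44, 38.75 and 39.27 TPM in (R)-GNE-140 and 33.72, 31.56 and 35.82 TPM in control libraries. Its groups lay apart and its log2 difference of 0.22 did not pass (limma adjusted p = 0.0947), but it did under quantile normalization (0.0458, limma). CAD, which starts pyrimidine synthesis, was at -0.21 and did not pass (limma adjusted p = 0.109), but did under median-of-ratios scaling (0.0384, limma).

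Genes of 3-phosphoglycerate supply and use had 1 rise among 7 tested (median 0.001), where 3.03% of all genes tested were called in either direction. It was the enolase ENO2, at 2.57 ± 0.474 TPM in (R)-GNE-140 and 1.12 ± 0.208 TPM in control libraries (SD, n = 3 each; log2 0.75, limma adjusted p = 0.0404), and ENO3 was at a log2 of 0.42 and did not pass. At this low level the log2 difference of ENO2 depended on the pseudocount, being 1.13 with 0.1 and 0.31 with 5, and its call was lost under quantile normalization (limma adjusted p = 0.0540) and with no filter on low values (0.0576). Of 10 NADPH and glutathione genes 1 rose (median 0.06), beside the same 3.03% over all genes. The risen gene was GSR, the glutathione reductase (log2 0.30, limma adjusted p = 0.0444), while the malic enzyme ME1 was at 0.21 (limma adjusted p = 0.0508). Omitting any 1 library ended the calls of ENO2 (limma adjusted p of 0.0760 to 0.126) and GSR (0.0600 to 0.161). The call of GSR was also lost with no filter on low values (limma adjusted p = 0.0781) and with no variance trend (0.0785). ENO3 passed without (R)-GNE-140 replicate 2 (limma adjusted p = 0.0417). ME1 passed under each of the 3 other scalings and with a mean TPM of at least 5 (limma adjusted p of 0.0336 to 0.0454).

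**Figure D4:**
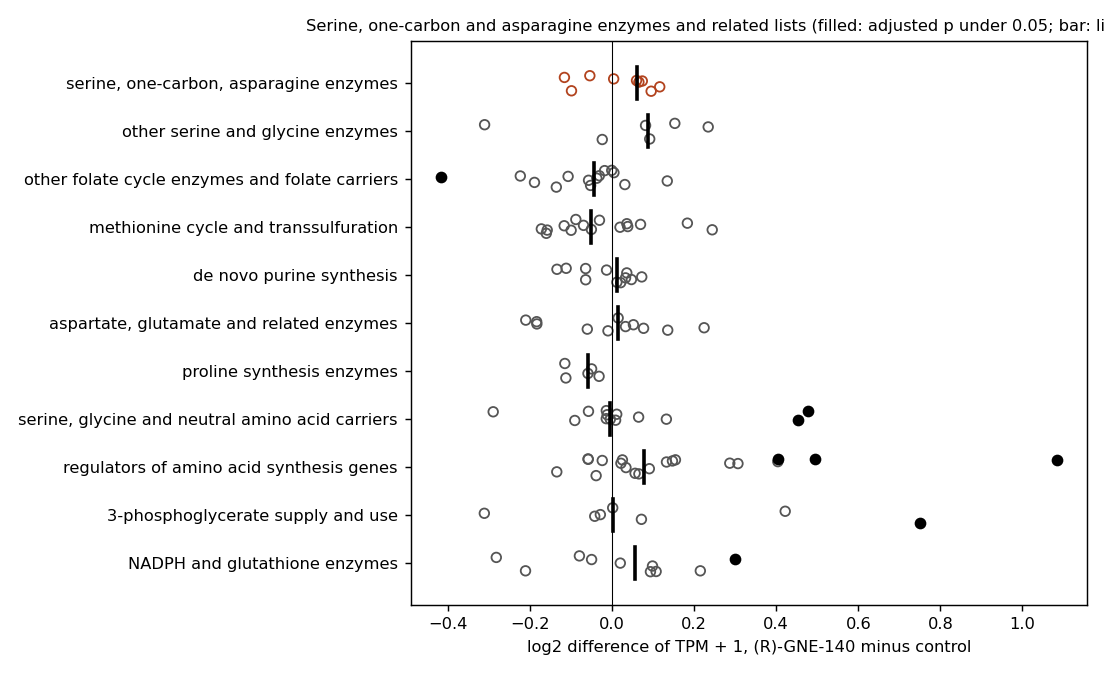
Log2 difference of TPM + 1, (R)-GNE-140 minus control, for each tested gene of the 9 enzymes and of 10 related lists, 1 row per list. Filled points passed a limma adjusted p of 0.05 and the bar marks the list median; the 8 filled points are GGH at -0.42 and 7 genes between 0.30 and 1.08.

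Regulators and carriers tied to the amino acid response held the other 5 calls. ATF4, the factor above the response, had 601, 591 and 566 TPM in (R)-GNE-140 libraries, against 540, 545 and 566 TPM in control libraries. Its log2 difference of 0.09 (95% interval -0.006 to 0.19) did not pass (limma adjusted p = 0.310). Of 20 regulators tested 3 rose and 0 fell (median 0.08), beside 3.03% called in either direction over all genes: DDIT3, a stress-induced factor, by 1.08, PPP1R15A, which restores translation by dephosphorylating eIF2-alpha, by 0.50, and NUPR1 by 0.40 on the log2 scale. Of 13 carriers 2 rose and 0 fell (median -0.005): SLC3A2 by 0.48 and SLC7A11 by 0.45.

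Set beside these, the 95% interval of ASNS ended at 0.18, and those of PSAT1, PSPH and MTHFD2 at 0.21, 0.26 and 0.24. The intervals of DDIT3 and SLC3A2 began at 0.75 and 0.33, and those of SLC7A11, PPP1R15A and NUPR1 at 0.23, 0.26 and 0.23. The difference between genes was not tested. DDIT3, SLC3A2, SLC7A11, PPP1R15A and NUPR1 are named because they passed in this same fit, so their intervals lie above 0 by that choice. In their lists, 17 of 20 regulators and 11 of 13 carriers did not pass. With libraries omitted in turn, DDIT3 stayed past the threshold in 6 of 6 fits and SLC3A2 in 5, missing it without (R)-GNE-140 replicate 3 (limma adjusted p = 0.0517). NUPR1 passed only without control replicate 1 (adjusted p of 0.0148, and up to 0.0890 in the other fits) and PPP1R15A only without control replicate 3 (0.0280, and up to 0.133). SLC7A11 passed in 0 of 6 (0.0744 to 0.129). With no filter on low values and with no variance trend, limma adjusted p was 0.106 and 0.0928 for PPP1R15A, 0.0812 and 0.0894 for NUPR1, and 0.101 and 0.0512 for SLC7A11, so that these calls were lost. The call of PPP1R15A was also lost under median-of-ratios scaling (limma adjusted p = 0.0552) and quantile normalization (0.0570).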

How the data were processed

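The deposited values are TPM, scaled by the authors to the same total in each library and rounded to 2 decimals. STAR, RSEM and edgeR 3.42.0 are named in the submitters' processing notes, with no order or settings. Since the sources used here name no genome build, coordinates and sequences are not printed. Libraries were directional and polyA-selected, per the labels' protocols. Depth is unknown, and estimates of near-identical gene copies can share reads.

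The test was limma 3.58.1 (R 4.3.3) on log2(TPM + 1) for genes averaging at least 1 TPM, with only the group in the model, a variance trend and Benjamini-Hochberg adjustment over all genes. This scale understates changes at low TPM. Exact permutation tests used scipy 1.17.1. The fit was checked on simulated data. Members, lists and the rule for named genes (all members, ATF4, and from each list the genes past 0.05 and the 2 of smallest p) were chosen with earlier results of these data known. Rows that share a symbol stayed in the fit and its adjustment, and were left out of the lists and the search for genes like ASNS. A promoter motif search was planned and not run. The 15 alternatives covered pseudocount, filter, scaling, variance trend, the replicate number as a block, and omission of each library. Values of 1 further gene of the lists are not reported here.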

Additional observations from a re-analysis of the deposited data

How the results depend on the processing

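In all 15 alternatives limma called 0 of the 9 enzymes, with a smallest adjusted p of 0.165 (median-of-ratios scaling), and their median log2 difference ran from 0.017 to 0.085. The sign of 8 enzymes was the same throughout. MTHFD1, near 0, turned to -0.0055 under median-of-ratios scaling and ran from -0.020 to 0.037 with a library left out. The number of genes called over the whole table was 329, and it was 168 with no filter on low values, 159 with no variance trend and 163 with the replicate block. It ran from 74 (without (R)-GNE-140 replicate 3) to 185 with a library left out, where fewer samples enter the fit; for the other settings the cause was not tested. Across genes, the correlations between deviations of same-numbered libraries were near 0 (r = 0.0358, 0.00927 and -0.0977, where genes are not independent). They lay within the range of differently numbered libraries, from -0.11 to 0.096. Such values cannot settle whether a number marks a shared culture or day, which the labels do not say. The replicate block called 0 of the 9 enzymes and ended the calls of SLC7A11, PPP1R15A, ENO2 and GSR. Depth is unknown, and 3 libraries a group limit the precision to the intervals given.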

Other observations

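The genes whose level followed ASNS most closely over the 6 libraries were TKTL1, UTP23 and IQGAP2, out of 8770 genes ranked, with Pearson correlations of 0.998, 0.988 and 0.9875 on log2(TPM + 1). These are the highest of many values over 6 libraries that share their groups, and they are given as a description. TKTL1, a transketolase-like gene, had 7.98, 6.95 and 8.17 TPM in (R)-GNE-140 libraries, against 5.97, 6.08 and 7.23 TPM in control libraries, and did not pass (log2 0.23, limma adjusted p = 0.291). As in ASNS, treated replicate 2 was the lowest treated library and control replicate 3 the highest control. TKTL1 was picked by its correlation with ASNS, so that choice favours a shared order.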
